A study of Mus musculus with 27 samples.

Results

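Bone-forming osteoblasts arise from mesenchymal progenitors under a small set of transcription factors. Runx2 binds DNA as a partner of Cbfb and is required for the lineage, and Sp7, also called osterix, is required downstream of it for progenitors to become osteoblasts that build mineralised matrix. Runx1, a relative of Runx2 best known from blood formation, shares the same partner, while Dlx3, Dlx5 and Dlx6 are homeodomain proteins of the distal-less family that take part in craniofacial and skeletal development. These 7 genes (Runx2, Runx1, Cbfb, Sp7, Dlx3, Dlx5 and Dlx6) were taken by name from the 37991 genes measured, and 7 of 7 were found, each under its Ensembl identifier.

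The samples were cells from the calvaria, the flat bones of the skull vault, of neonatal C57BL/6J-Col3.6 CFP mice aged 5 to 9 days. All groups carried this cyan fluorescent reporter under the Col3.6 fragment of the type I collagen promoter, so the cells that entered every group were those in which this promoter was active when they were sorted after 4 days of growth. Sorted cells then differentiated in ascorbic acid, 4 mM beta-glycerol phosphate and 10% serum, and RNA was taken on 9 days, every other day from day 2 to day 18. Day is the only variable in the labels that distinguished the groups. No uncultured or untreated control is among the samples.

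Each day had 3 expression profiles. The study's methods call them triplicates, but the names of the deposited profiles give them 1 barcode on 3 sequencing lanes, and for that reason they were counted as 1 library, so no day had a biological replicate and tests used the spread between days. Differences between days and between libraries therefore cannot be told apart. Day totals ranged from 22470195 estimated counts (day 10) to 62009157 (day 12), with a median of 43146793. Levels are given as TPM, the abundance of transcripts per length on a common total, after each profile was scaled to its upper quartile, by factors of 0.933 to 1.11. The labels call the cells osteoblasts, and the type I collagen genes Col1a1 and Col1a2, markers of that lineage, had 1526 and 982.8 TPM on day 2. The other osteoblast markers differed widely at that time. Bglap (osteocalcin) had 1.24 TPM, Ibsp (bone sialoprotein) 0.581 TPM, Alpl 9.13 TPM and Spp1 402 TPM on day 2. Markers of other cells moved over the days: the summed level of 7 monocyte and macrophage markers was 24.1 TPM at the start (day 2) and 2014 TPM at the end (day 18) (6 of 7 rose in a straight line), that of 5 adipocyte markers 7.44 and 407 TPM (5 of 5 rose), and that of 4 smooth muscle markers 5414 and 892 TPM (4 of 4 fell). Of 6 osteoclast markers 3 rose, with Calcr and Dcstamp at 0 on every day. By the same straight line 28.3% of all genes tested rose and 26.1% fell. Of the osteocyte markers Phex and Dmp1 rose, and Mepe and Sost had 3 and 13 counts in all. Endothelial markers summed to between 3.24 and 12.1 TPM, chondrocyte markers to between 50.3 and 112 TPM, keratinocyte markers to at most 3.20 TPM and mast cell and lymphocyte markers to at most 0.910 TPM, with Krt14, Mcpt4 and Cd3e at 0. The part of these cells in the results below was not tested, and in bulk RNA fewer cells of a type and less RNA per cell cannot be told apart.

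Promoter windows from RefSeq (assembly GRCm38.p6) were on hand for Runx2, Runx1 and Cbfb, and none was used for Sp7, Dlx3, Dlx5 or Dlx6. The windows below hold the 250 bases before the transcription start, 5′ to 3′ on the strand of the gene. They are shown because they belong to the 2 Runx genes, whose levels moved in opposite directions, and to Bglap and Ibsp, 2 bone matrix genes whose levels are set beside the factors further on. Capitals mark ACCACA (or TGTGGT on the other strand), the core bound by Runx proteins, and TAATT (or AATTA), a core of homeodomain proteins such as those of the Dlx family.
Runx2, minus strand, chr17:44814628-44814877: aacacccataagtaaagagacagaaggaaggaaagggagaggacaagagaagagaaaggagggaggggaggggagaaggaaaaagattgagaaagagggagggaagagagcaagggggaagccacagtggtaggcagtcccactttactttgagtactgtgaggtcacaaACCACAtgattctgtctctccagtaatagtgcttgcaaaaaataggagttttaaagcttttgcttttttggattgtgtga
Runx1, minus strand, most upstream start, chr16:92826075-92826324: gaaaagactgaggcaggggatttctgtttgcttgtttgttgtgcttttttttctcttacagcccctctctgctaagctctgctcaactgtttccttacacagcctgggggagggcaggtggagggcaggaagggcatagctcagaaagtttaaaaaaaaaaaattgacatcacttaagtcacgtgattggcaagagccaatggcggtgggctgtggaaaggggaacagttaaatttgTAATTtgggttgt
Bglap, minus strand, chr3:88384467-88384716: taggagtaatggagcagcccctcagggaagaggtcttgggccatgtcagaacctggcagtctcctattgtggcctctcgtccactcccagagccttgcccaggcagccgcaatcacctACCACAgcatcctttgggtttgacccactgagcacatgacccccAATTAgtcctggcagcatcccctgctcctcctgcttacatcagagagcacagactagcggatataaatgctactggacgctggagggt
Ibsp, plus strand, chr5:104299037-104299286: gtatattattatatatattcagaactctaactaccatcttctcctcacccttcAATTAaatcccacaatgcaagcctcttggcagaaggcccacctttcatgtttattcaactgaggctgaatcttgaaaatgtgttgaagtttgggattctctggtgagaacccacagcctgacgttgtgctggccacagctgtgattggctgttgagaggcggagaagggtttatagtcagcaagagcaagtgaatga

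The Runx2 window held 1 Runx core, 80 bases before the start, and no homeodomain core. The Bglap window held both, a Runx core 132 bases and a homeodomain core 88 bases before the start. Among 32851 RefSeq promoter windows of the same length, 14% held a Runx core on either strand and 25% a homeodomain core, so that a single match is common. A match is a stretch of letters and not a measured binding site. Just downstream of their starts, from base 24 of the Runx1 transcript and base 19 of the Runx2 transcript, the 2 Runx genes share a run of 22 identical bases with 2 Runx cores, at chr16:92826030-92826051 and chr17:44814588-44814609 on the minus strand:
shared run of Runx1 and Runx2: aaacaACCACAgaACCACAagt

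Cbfb, the non-DNA-binding partner that stabilises Runx proteins on DNA, was the most abundant of the 7 factors on 9 of 9 days, and Runx2 was second on 9 of 9. Averaged over days, the levels were 83.9 ± 7.43 TPM for Cbfb (SD, n = 9 days), 54 ± 8.67 for Runx2, 24.8 ± 4.46 for Runx1, 14.6 ± 4.17 for Dlx5, 8.77 ± 9.18 for Sp7, 1.15 ± 0.461 for Dlx6 and 0.664 ± 0.805 for Dlx3. The gaps from Cbfb to Runx2 and from Runx2 to Runx1 were larger than the SD of either gene, and 9 of 9 days kept that order in all 3 profiles. Lower in the order the neighbours were less separate. Runx1 was above Dlx5 on 8 of 9 days, the exception being day 14, Dlx5 was above Sp7 on 8 of 9, the exception being day 2, and Dlx6 was above Dlx3 on 7 of 9, with the order turned on days 16 and 18. The mean gaps between Dlx5 and Sp7 (5.87 TPM) and between Dlx6 and Dlx3 (0.483 TPM) were smaller than the SD of those gaps over days (9.74 and 0.84 TPM). So was the gap between Sp7 and Dlx6 (7.62 TPM, SD 9.43), although Sp7 was above Dlx6 on 9 of 9 days. At a limit of 1 TPM, 5 of the 7 were expressed on 9 of 9 days, Dlx6 on 5 and Dlx3 on 2.

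**Figure D1:**
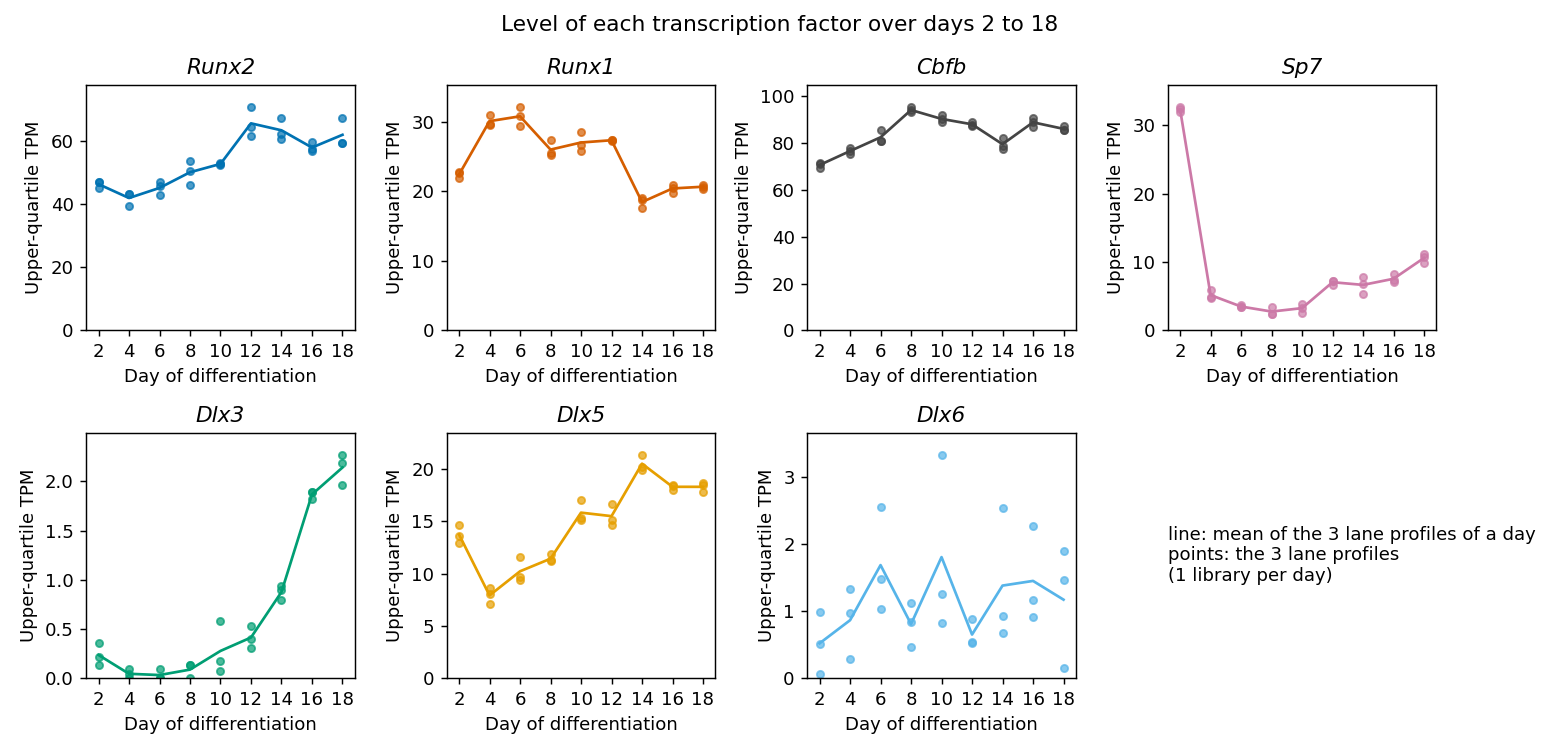
Upper-quartile scaled TPM (y axis, from 0, a scale of its own for each gene) of the 7 transcription factors against day of differentiation (x axis); the line joins the means of the 3 lane profiles of a day and the points are those profiles. Sp7 stands at 32.3 TPM on day 2 and at 2.77 to 10.6 TPM afterwards, Dlx3 rises to 2.14 TPM on day 18, and the 3 points of Dlx6 lie far apart on most days.

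Across the days, a straight line was fitted to the counts of each gene, and the change is given as the fitted log2 difference from day 2 to day 18. In this fit 4 of the 7 factors passed the test (edgeR quasi-likelihood test, adjusted p under 0.05), where 54.3% of all 15659 genes tested did, so that a change over the days was about as common among the factors as among genes in general. Runx2, Dlx3 and Dlx5 rose and Runx1 fell. Over all genes 28.3% rose and 26.1% fell. The median size of change was 0.61 on the log2 scale for the 7 factors and 0.76 for all genes. A natural spline in day, which also finds changes that turn, called 5 of 7 (59.1% of all genes), adding Sp7. Days 14 to 18 differed from days 2 to 6 in the same 4 factors as the line (51.1% of all genes), and the TPM of these periods did not overlap in 4 of 7 (58% of all genes).

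The middle of the series gave fewer calls. Between days 2 to 6 and days 8 to 12, 0 of 7 factors passed the test (31% of all genes). An unadjusted edgeR p under 0.05 was found for 3 of 7 (Runx2, Cbfb and Sp7) and for 43.9% of all genes. Between days 8 to 12 and days 14 to 18, edgeR called 0 of 7 factors and 0% of all genes. There 2 of 7 factors (Runx1 and Dlx3) and 2557 genes (16.3% of all) had an unadjusted p under 0.05. The days of a period stood in for replicates in these comparisons, so their spread includes any change within the period.

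**Figure D2:**
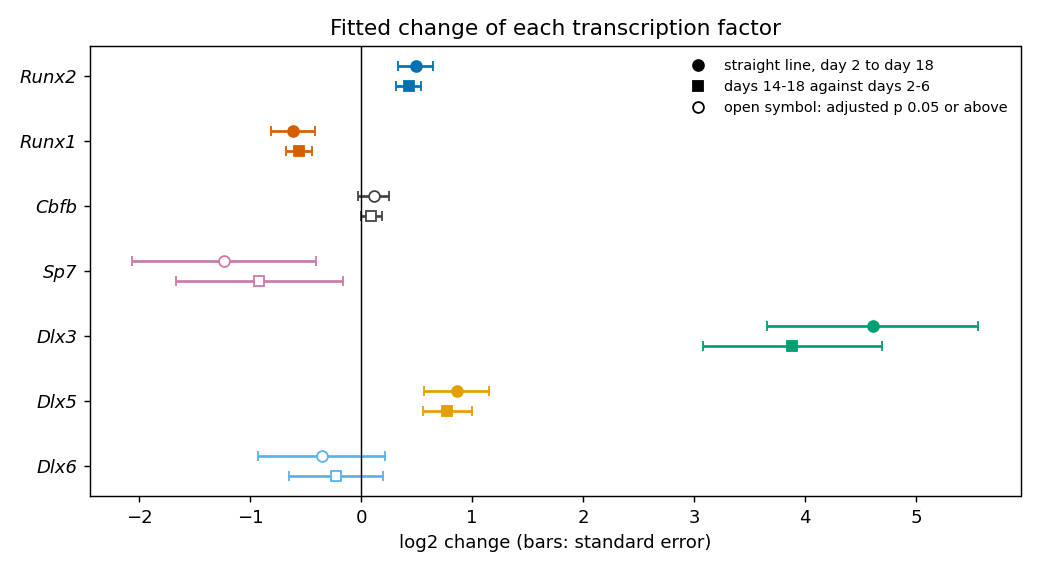
Fitted log2 change (x axis) of the 7 transcription factors (y axis) from the straight line between day 2 and day 18 (circles) and from days 14 to 18 against days 2 to 6 (squares), with bars for the standard error; filled symbols have an adjusted p under 0.05. Runx2, Dlx3 and Dlx5 lie to the right of 0 and Runx1 to the left in both comparisons, and Cbfb, Sp7 and Dlx6 have open symbols.

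Runx2, the master regulator of the lineage (ENSMUSG00000039153, chromosome 17, 44632936 to 44951746, minus strand, 14 annotated transcripts, NCBIM37), was already high on day 2. From day 2 to day 18 in steps of 2 days, it had 46.4, 42, 45.2, 50.2, 52.8, 65.7, 63.4, 58 and 62 TPM. The 3 latest days were above the 3 earliest, without overlap, and day 12 was the highest. The straight line gave a log2 change of 0.49 (SE 0.16, edgeR adjusted p = 0.0232), and days 14 to 18 exceeded days 2 to 6 by 0.43 (SE 0.12, edgeR adjusted p = 0.012). The TPM ratio of the highest to the lowest day was 1.56. The call did not hold without day 4 (0.39, edgeR adjusted p = 0.0755) or without day 14 (0.44, edgeR adjusted p = 0.0514). Another identifier in the annotation carries the same symbol, lies within the same locus on the same strand and took 0.749% of the counts of the pair. Only 1 of 27 Runx2 profiles had a whole-number count, since RSEM divided shared reads. Summing both identifiers, an alternative chosen after seeing the data, left the calls of the 7 factors as they were. The effective length of Runx2 lay between 5174 and 5696 bases, and its TPM and its counts did not move alike on every step. From day 10 to day 12 the CPM (counts scaled to the library total) were 202 and 199, and in CPM the highest day was day 14, at 220. The TPM as deposited, before scaling to the upper quartile, was also highest on day 14, at 62.3, with 59.2 on day 12. Antisense to Runx2 lies the start of Supt3h, with 2604 counts against 71807 for Runx2 over all days.

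Runx1 (ENSMUSG00000022952, chromosome 16, 92601712 to 92826311, minus strand) moved the other way. In the same order of days its levels were 22.4, 30.1, 30.8, 26, 27, 27.4, 18.5, 20.4 and 20.7 TPM. It was highest on days 4 and 6 and lowest on the 3 last days, which lay below the 3 first without overlap. The straight line gave a log2 change of -0.61 (SE 0.20, edgeR adjusted p = 0.0231) and the late against early days a change of -0.56 (SE 0.12, edgeR adjusted p = 0.00347). The largest step between neighbouring days was from day 12 to day 14, a ratio of 0.675, and among 10165 genes at 5 TPM or more on either day 3.74% had a lower ratio at that step. Without day 4, 16 or 18 the line missed the threshold, with edgeR adjusted p of 0.0742, 0.0614 and 0.0554. Runx1 is also expressed in blood cells. Its level was lowest on the 3 days on which the summed macrophage markers were highest. The part of blood cells in that level was not tested.

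The balance of the Runx pair shifted accordingly. The TPM ratio of Runx2 to Runx1 over the 9 days was 2.07, 1.39, 1.47, 1.93, 1.95, 2.40, 3.43, 2.84 and 3.00. It was lowest on days 4 and 6 and highest on days 14 to 18. The summed level of both Runx genes stayed near that of their partner, at 0.811 to 1.06 times the level of Cbfb, which says nothing about the amounts of protein.

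Cbfb (ENSMUSG00000031885, chromosome 8, 107694574 to 107741886, plus strand, 4 transcripts) varied least among the 7. It ranged from 70.5 TPM on day 2 through a median of 85.9 to 94 TPM on day 8, with a coefficient of variation over days of 8.85%. Day 2 was the lowest, and early and late days overlapped. The log2 change along the line was 0.12 (SE 0.14, edgeR adjusted p = 0.509), and the spline did not call it either (fitted range 0.35, edgeR adjusted p = 0.117). Of all genes tested, 86.5% had a larger fitted range.

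Sp7 (ENSMUSG00000060284, chromosome 15, 102187040 to 102197285, minus strand), the zinc-finger factor osterix, had a time course unlike a line. Its summed counts from day 2 to day 18 were 2128, 326, 208, 116, 130, 488, 385, 486 and 604. The corresponding levels were 32.3, 5.18, 3.50, 2.77, 3.27, 7.06, 6.66, 7.56 and 10.6 TPM. Day 2 stood far above every later day, the level reached its lowest on day 8, and it was higher again from day 12 on without returning to the level of day 2. In CPM, day 2 was 12.9-fold above day 8 (95% exact interval 10.7 to 15.7) and day 18 was 3.49-fold above day 8 (2.85 to 4.29), while day 18 reached 0.27 of day 2 (0.246 to 0.296). These intervals compare single libraries and cover counting error only.

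The fall from day 2 to day 4 was a ratio of 0.16 in TPM, and 18 of 9584 genes at 5 TPM or more on either day fell by more. From day 10 to day 12 the TPM ratio was 2.16, which 1.39% of 10145 genes exceeded, but the CPM ratio was 1.36 (95% exact interval 1.12 to 1.66, counting error only), and the effective length of the gene was 2624 bases on day 10 and 1931 bases on day 12. The spline called the change of Sp7 with a fitted range of 3.59 on the log2 scale (edgeR adjusted p = 1.2e-05), and 9% of all genes tested had a larger range. The straight line did not (log2 change -1.23, SE 0.83, edgeR adjusted p = 0.233). Its sign rested on 1 library: without day 2 the line gave a rise of 1.42 (edgeR adjusted p = 0.0213), and the spline still called the gene (range 1.56, edgeR adjusted p = 0.00138). Without day 2, late against early days gave 0.86 in place of -0.92, and neither passed the test (edgeR adjusted p = 0.0883 and 0.334).

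**Figure D3:**
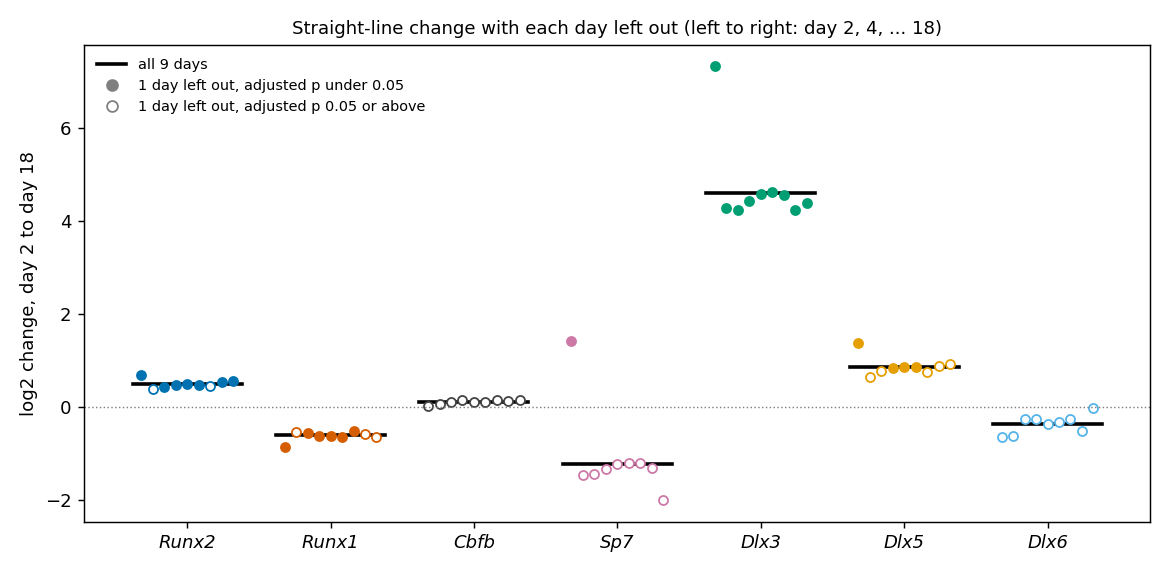
Straight-line log2 change between day 2 and day 18 (y axis) for each of the 7 transcription factors (x axis); black bars use all 9 days and points leave out 1 day each, from day 2 at the left to day 18 at the right, filled where the adjusted p was under 0.05. Leaving out day 2 turned Sp7 from -1.23 to 1.42 and raised Dlx3 from 4.61 to 7.33, and no other single day turned the sign for any of the 7 genes.

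The ratio of Sp7 to Runx2, its upstream regulator in the lineage, followed Sp7 because Runx2 moved little. It was 0.697 on day 2, 0.123 on day 4, lowest on day 8 at 0.0552, and 0.171 on day 18. Sp7 ranked below Cbfb and Runx2 alone on day 2, and below Runx1 and Dlx5 as well on the 8 later days. Its effective length, which RSEM averages over the isoforms of a gene by their abundance, lay between 1931 bases on day 12 and 2624 bases on day 10, with 2 annotated transcripts of 1403 and 2906 bases. On day 8, with 116 counts, the SD of that length over the 3 profiles was 372 bases, so a change in isoform mix was not detectable on that day. The SD was 5.3 bases on day 10, with 130 counts, and 170 bases on day 12, with 488 counts. Whether the isoform mix differed between days 10 and 12 was not tested.

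Dlx5 (ENSMUSG00000029755, chromosome 6, 6827805 to 6832085, minus strand), a homeodomain factor known to act upstream of Runx2 and Sp7, dipped and then rose. In the order of days it had 13.7, 7.92, 10.2, 11.4, 15.8, 15.5, 20.5, 18.3 and 18.3 TPM. Day 4 was the lowest, and the 3 late days were above the 3 early ones. The straight line rose by 0.86 (SE 0.29, edgeR adjusted p = 0.0295) and the late days exceeded the early ones by 0.78 (SE 0.22, edgeR adjusted p = 0.0156). From day 2 to day 4 the CPM fell to 0.558 of their value (95% exact interval 0.477 to 0.652, counting error only). The line missed the threshold without any 1 of days 4, 6, 14, 16 and 18, with edgeR adjusted p between 0.0504 and 0.0778, and the size of the change stayed between 0.65 and 1.37 over the days left out.

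Dlx3 (ENSMUSG00000001510, chromosome 11, 94981403 to 94986610, plus strand, 1 transcript), which is expressed in bone, tooth, hair and placenta and whose mutation in people affects teeth, hair and bone, started near the limit of detection. Its counts from day 2 to day 18 were 16, 3, 2, 4, 10, 35, 58, 135 and 136. In TPM this was 0.236, 0.0452, 0.0324, 0.0878, 0.278, 0.414, 0.876, 1.87 and 2.14. The level fell from day 2 to the days after it, rose on every step from day 6 on, and stood on the 3 last days above every earlier day. On day 4 the gene had 3 counts in 42301717, the level taken as the floor of the measurement. Day 6, with 2 counts, lay below that floor.

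Day 18 exceeded day 2 by a ratio of 8.08 in CPM (95% exact interval 4.80 to 14.5). Over day 6 the ratio was 66, with a counting interval of 17.9 to 550. That size is poorly determined, because the 2 counts of day 6 lie below the floor. The straight line rose by 4.61 (SE 0.95, edgeR adjusted p = 0.0022) and days 14 to 18 exceeded days 2 to 6 by 3.88 (SE 0.81, edgeR adjusted p = 0.00357). Of all genes, 4.49% had a larger fitted spline range than Dlx3 (5.23, edgeR adjusted p = 3.91e-05). Without day 2 the line was steeper, at 7.33, and the gene was called with each of the 9 days left out. With an annotation of 1 transcript, its effective length was 2358 bases throughout, so its TPM did not depend on an isoform mix.

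Dlx6 (ENSMUSG00000029754, chromosome 6, 6813334 to 6818568, plus strand), the neighbour of Dlx5 on the other strand, was too sparse to follow. Its counts ran from 15 on day 18 through a median of 21 to 32 on day 6, and its TPM from 0.52 on day 2 through a median of 1.17 to 1.80 on day 10. No run of days stood apart, and early and late days overlapped. The line gave a log2 change of -0.35 (SE 0.57, edgeR adjusted p = 0.625) and the spline did not call the gene (edgeR adjusted p = 0.543). Day 18 over day 2 was 0.679 in CPM, with a 95% exact interval of 0.326 to 1.38, while in TPM day 18 was the higher of the pair. The effective length went from 1558 bases on day 2 to 581 bases on day 18, and dividing fewer counts by a shorter length gives the higher TPM. Its 4 annotated transcripts span 383 to 2216 bases, and with 15 to 32 reads a day the share of each is poorly determined. The antisense transcript Dlx6os1 overlaps the gene and had 277 counts against 203 for Dlx6. The sources used here do not say whether the counting used strand, so that reads of this pair may not be told apart.

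**Figure D4:**
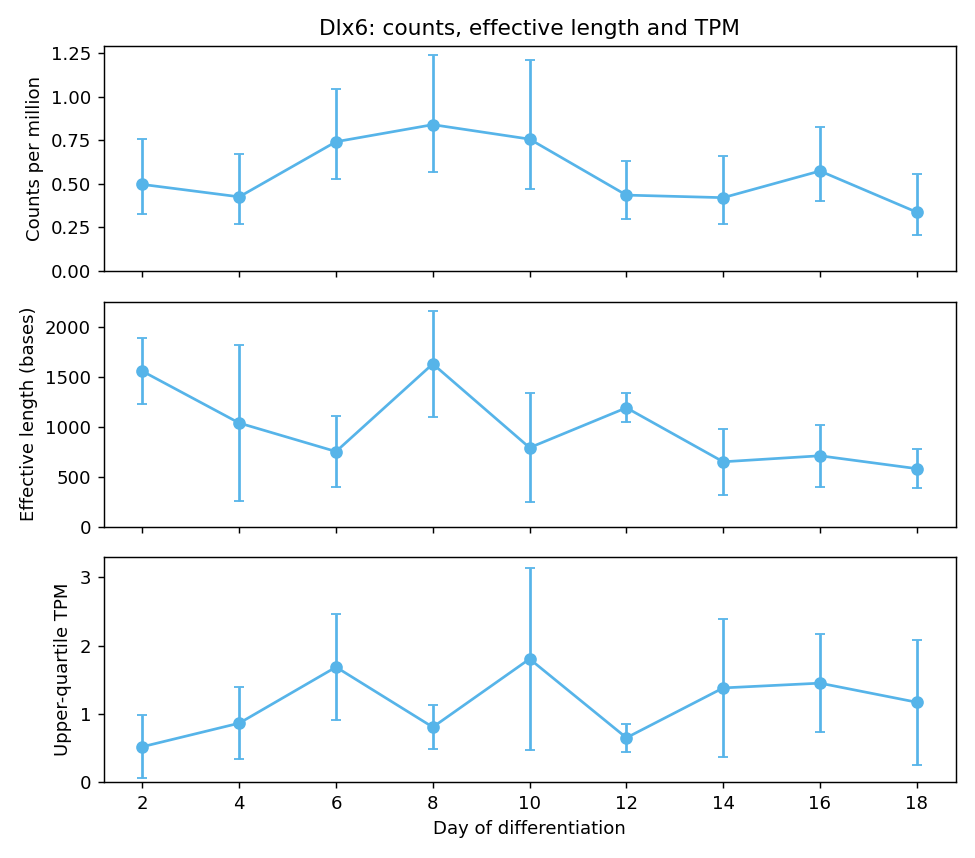
Dlx6 by day of differentiation (x axis): CPM with 95% Wilson intervals (top), effective length in bases with the SD over 3 profiles (middle) and upper-quartile TPM with the SD over 3 profiles (bottom). The CPM stays between 0.337 and 0.84, the effective length moves between 581 and 1631 bases, and the TPM is high on days when the length is short.

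The distal-less genes thus differed in time course. Dlx5 exceeded Dlx3 by a TPM ratio of 58.1 on day 2 and 8.55 on day 18, and it exceeded Dlx6 by 6.07 to 26.4 on all days. The closeness of the courses was described by Pearson's r over the 9 days on log2(TPM + 1), values that share libraries and a time axis. It was 0.87 between Runx2 and Dlx5 and 0.78 between Dlx3 and Dlx5. Runx1 had -0.83 with Dlx5 and -0.78 with Dlx3, and Sp7 had values between -0.68 (with Cbfb) and 0.31 (with Dlx3). The values of Sp7 lean on day 2, where it had 32.3 TPM against 2.77 to 10.6 TPM later. They were not computed without that day.

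By the same measure, the genes closest to each factor were sought among 9821 genes with a mean of at least 5 TPM. Closest to Sp7 were Ptch1, the Hedgehog receptor and a target of that pathway (r 0.97), Clic4 (0.96) and Dlc1 (0.93). Closest to Dlx3 were Bglap, the late bone matrix gene (0.99), Jam2 and the adipocyte marker Cfd (both 0.98). Runx2 was closest to Angpt2, Gprc5b and Rara (0.98 to 0.99), and Runx1 to Ccnt2, Cchcr1 and Med23 (0.94). The closest genes were Kdelc1, Parp10 and Uckl1 for Cbfb (0.95 to 0.96), Tbxa2r, Bbs4 and Hdac5 for Dlx5 (0.96 to 0.98) and Rev1, Gripap1 and Rnf167 for Dlx6 (0.83 to 0.92). With a pseudocount of 0.1 in place of 1, Rnf19a took the place of Dlc1 for Sp7 and C1qtnf5 that of Cfd for Dlx3. With so many genes and 9 points, high values of r are common and are a description only. Those of Sp7 lean on day 2, its highest day, and were not computed without it.

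Genes of bone matrix and mineral that are known targets of the lineage factors mostly rose over the days. Of 10 such genes, 7 rose along the line and 0 fell (28.3% and 26.1% of all genes). Their median log2 change was 4.51 against 0.05 over all genes, and the spline called 10 of 10 (59.1% of all genes). The largest rises were those of Bglap, from 1.24 TPM at the start to 208 TPM at the end (log2 change 11.3, SE 1.11), and of Ibsp, from 0.581 to 78.4 TPM (log2 change 9.55, SE 1.15). Bglap and Bglap2 are near-identical copies, so the division of reads between them is uncertain. Alpl, the alkaline phosphatase needed for mineral formation, had 9.13 TPM on day 2, then 0.857, 0.467 and 1.45 TPM by day 8, 11.7 TPM on day 10 and 17.6 TPM at the end. It dipped after day 2 as Sp7 did, but passed its level of day 2 by day 10, which Sp7 had not done by day 18. The line did not call Alpl (edgeR adjusted p = 0.146) and the spline did (edgeR adjusted p = 0.00765). Mmp13 and Spp1 were the other 2 genes without a call along the line. Spp1 was lower on days 14 to 18 than on days 2 to 6 (log2 change -1.09, SE 0.38, edgeR adjusted p = 0.0391).

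**Figure D5:**
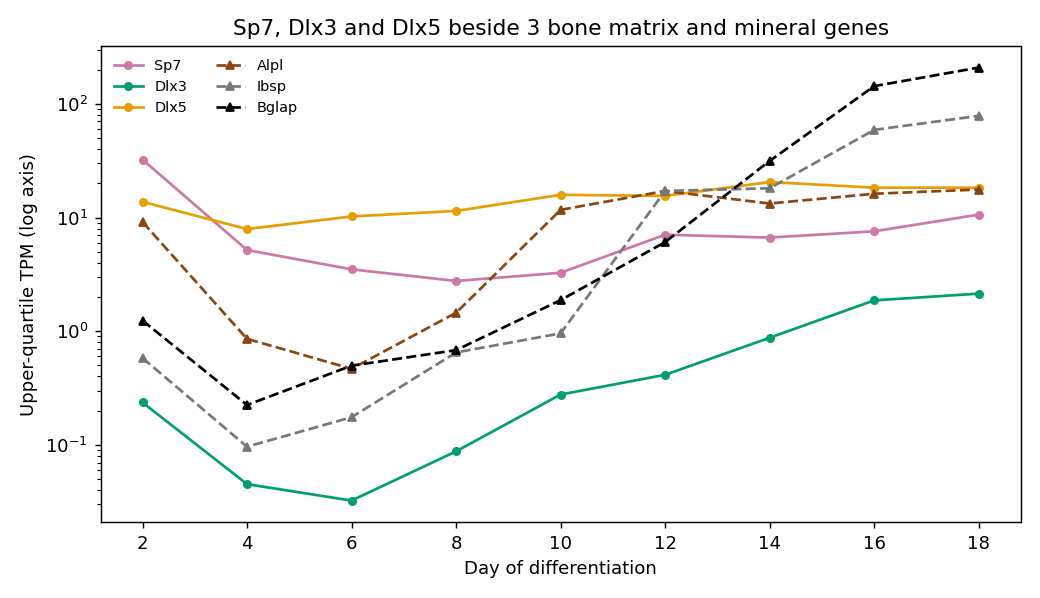
Upper-quartile TPM on a log axis (y) against day of differentiation (x) for the transcription factors Sp7, Dlx3 and Dlx5 (solid lines, circles) and for the matrix and mineral genes Alpl, Ibsp and Bglap (dashed lines, triangles). Day 4 lies below day 2 for all 6 genes, and on day 18 Bglap (208 TPM) and Ibsp (78.4 TPM) stand above the 3 factors while Sp7 (10.6 TPM) stays below its 32.3 TPM of day 2. Bglap and Ibsp had only 1.24 and 0.581 TPM on day 2. Among the matrix and mineral genes not drawn, Dmp1 was also lower on day 4 than on day 2. Col1a1, Col1a2, Spp1, Mmp13, Phex and Bglap2 were higher.

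Proteins that raise the activity of Runx2 or Sp7 went in both directions. Of 9 cofactors, 3 rose and 5 fell along the line, with a median log2 change of -0.65. Among all genes tested 28.3% rose and 26.1% fell, with a median of 0.05. The largest rises were Maf, from 9.35 to 31.3 TPM (log2 change 1.83, SE 0.27), and Wwtr1, the Hippo pathway coactivator TAZ, from 30.2 to 58.8 TPM (0.85, SE 0.10). The largest fall was that of Cebpb, a leucine zipper factor that acts with Runx2, from 3.17 to 1.37 TPM (-1.36, SE 0.38).

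Among 13 factors known to restrain Runx2 or Sp7, 7 rose and 2 fell (28.3% and 26.1% of all genes), with a median log2 change of 0.29 (0.05 over all genes). The largest rises along the fitted line were Zfp521, a zinc-finger antagonist of Runx2, from 13.1 to 71.3 TPM (log2 change 2.37, SE 0.35), and Hey1, a Notch target (2.12, SE 0.80). Hey1 had 1.56 TPM on day 2, 0.277 TPM on day 4 and 3.52 TPM on day 16, and ended at 2.56 TPM, so its change between the first and last day was smaller than the line gives. The largest falls were Msx2, a homeodomain factor of early skull progenitors, from 129.9 to 12.9 TPM (-3.99, SE 0.41), and Smurf1, a ubiquitin ligase that acts on Runx2 and Smad proteins, from 31.6 to 12.8 TPM (-1.42, SE 0.17). Twist1, which binds Runx2 and blocks it in early progenitors, had 27.5 TPM on day 2 and 28.7 TPM on day 18 and did not pass the test (edgeR adjusted p = 0.367).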

How the data were processed

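RNA sequencing profiles of mouse calvarial cells (27 profiles, 9 days) were used. The authors aligned reads with Bowtie 0.12.9 to the NCBIM37 transcriptome and ran RSEM, version 1.2.8 in the submitters' processing notes. The expected counts deposited by the authors were summed over the 3 lanes of a day and rounded. The TPM deposited by the authors was divided by the 75th percentile of values above 0 of the profile and multiplied by the mean of the 27. The FPKM deposited by the authors served as an alternative. Symbols came from the GENCODE annotation of NCBIM37, which named 37205 of 37991 identifiers.

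The 9 summed libraries were fitted with edgeR 4.0.16 in R 4.3.3 (quasi-likelihood test with upper-quartile factors, on the 15659 genes that filterByExpr kept at a minimum of 10 counts, adjusted after Benjamini and Hochberg): a line, a natural spline with 3 degrees of freedom, and 3 periods. The line, the spline and late against early were run on simulated counts. Their simulated spread was smaller than that fitted for the line (common dispersion 0.0581), so this run does not show how the line performs on these data. Alternatives were TMM factors, DESeq2 1.42.0, no filter, each lane and day left out, the 27 profiles as samples, and other pseudocounts and limits. Intervals cover counting error only. The 7 members and all lists were chosen with earlier results of these data known: the named genes are the members, the 2 largest rises and 2 largest falls among called genes of each list, and the 3 closest genes by Pearson's r. Twist1, Alpl, Mmp13 and Spp1 were named outside that rule, after their values were seen. Some genes of the lists are counted but not reported by name here.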

Additional observations from a re-analysis of the deposited data

How the results depend on the processing

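Calls among the 7 factors rested on single days more than on tools. Leaving out 1 day gave 1 to 5 factors called along the line in place of 4 (1 without day 4, 2 without day 14, 16 or 18), and 2 to 4 late against early. Over all genes the line then called 7187 to 8447 (7400 without day 4) in place of 8510. As shares of the genes tested these were 45.9% (without day 4) to 54.4%, in place of 54.3%. Late against early, 41.2% to 53.5% of all genes were then called in place of 51.1%. The spline called 4 in place of 5 with a quadratic and without day 6, Dlx5 missing the threshold (edgeR adjusted p = 0.065 and 0.077). Over all genes 58% and 53.8% were then called in place of 59.1%. With the 27 profiles the spline called 6 factors, and 88.7% and 89.3% of all genes with the replicate block and without it. Leaving out a lane moved no count past 1.5 times. With the 27 profiles as separate samples, 5 factors were called middle against early and 4 late against middle in place of 0, with the replicate block and without it, and 5 along the line. The shares of all genes called middle against early were then 68.3% and 69.5% in place of 31%, and late against middle 38.7% and 40.8% in place of 0%. Over all genes the line called 10649 (77% of those tested) with the replicate block and 10754 (77.7%) without it, in place of 8510 (54.3%). The numbers did not pair the samples (mean correlation of deviations 0.00163 within and -0.000813 between numbers over 11713 genes). With 1 day left out, the line of Sp7 lay between -1.999 and 1.42 and its late against early change between -1.39 and 0.859, the sign turning without day 2. With 1 lane left out, the line of Dlx6, never called, lay between -0.93 and 0.348 and its late against early change between -0.602 and 0.239, and without day 6 the latter was 0.012. The causes were not tested. TMM factors, DESeq2, no filter on counts and leaving out mitochondrial genes changed no call of a factor along the line. Depth limits Dlx3 before day 12 and Dlx6 throughout.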

Other observations

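Relatives of the 7 factors showed which other members of these families the cells carried. Of 13 paralogs and antisense neighbours, 9 passed the filter on low counts, and 2 rose and 1 fell along the line (28.3% and 26.1% of all genes). Sp1 and Sp4, broadly expressed relatives of Sp7, went from 39.3 to 55.4 TPM (log2 change 0.69, SE 0.11, edgeR adjusted p = 0.000651) and from 1.25 to 2.63 TPM (log2 change 1.00, SE 0.26, edgeR adjusted p = 0.00884) between day 2 and day 18. Dlx2, which patterns the branchial arches, went from 5.66 to 0.598 TPM (log2 change -2.997, SE 0.56, edgeR adjusted p = 0.00131). Runx3, the third Runx gene, had 3.08 TPM on day 2 and 3.04 TPM on day 18, with 6.73 TPM on day 6, and did not pass the test. Sp5 and Sp8 had 0 counts in all libraries, which allows up to 0.134 CPM on the shallowest day, day 10.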
